A study of Mus musculus with 4 samples.

Results

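The miRNA registry numbers new entries in the order in which they are submitted, so that a mouse miRNA with a number of 1000 or more is a late entry, in most cases one that was first seen by deep sequencing. The 195 mature miRNAs described here carry such a number and were chosen by their measured counts, as the miRNAs numbered 1000 or more with at least 30 counts summed over 4 small-RNA libraries of resting macrophages. They come from 170 hairpins and are 195 of the 1979 mature miRNAs in the table. Of the 1122 mature miRNAs numbered 1000 or more, 510 had no count, 417 had fewer than 30 counts, and 17.4% reached the count minimum, against 347 of 857, or 40.5%, of let-7 and the miRNAs with lower numbers. Since the counts chose the members, that they were read is not a result, and their levels are given as a description.

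The macrophages were grown from mouse bone marrow for 8 to 9 days with M-CSF at 10 ng/mL, the growth factor that drives marrow progenitors to macrophages, after plating at 85000 cells per square centimetre. They then received fresh medium with no LPS, and were harvested 16 hours later. The mice were 6 to 7 months old, 3 of each genotype, all on a mixed 129/B6 background. Wild type (WT) was sequenced as 2 biological replicates at the level of the culture, here WT A and WT B. The miR-146 knock-out (KO), a germline deletion of mir-146a, and the non-seed swap (3′F), in which bases of the 3′ part of the miR-146a duplex were exchanged between the strands at the endogenous locus, were sequenced as 1 library each. The labels do not say which mouse or pool of mice gave a library, and the KO and 3′F libraries carry the same culture identifier as WT A, with no statement that it marks a shared day or batch. Since each mutant is a single library, its difference from WT has no replicate check, and no test was run. KO and 3′F are compared with the same WT libraries, so their ratios are not independent of each other. In bulk RNA a lower value can come from fewer cells of a type or from less RNA per cell, and these cannot be told apart. The comparison asks how far levels of other miRNAs moved when miR-146a was removed or recoded.

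A canonical miRNA hairpin is cut from its primary transcript by Drosha with its partner Dgcr8, and the loop is then removed by Dicer, which leaves a duplex of a 5p and a 3p strand with short 3′ overhangs. One strand is kept by an Argonaute protein and finds targets by bases 2 to 8, the seed, while the other is mostly degraded, so that reads from both arms of a hairpin are commonly taken as a sign of processing. Some hairpins skip Drosha: mirtrons are introns whose ends are set by splicing, and some snoRNAs, small nucleolar RNAs that guide modification of other RNAs, and scaRNAs, their Cajal body counterparts, give rise to Dicer products.

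The deposited counts summed to between 11410940 and 19087640 per library, and levels are given as RPM, the count scaled to the library's total. At this depth 3 counts, the limit that a count of 0 allows, correspond to 0.157 RPM in KO, the deepest library, and to 0.263 RPM in WT B, the shallowest. The targeted miR-146a-5p had 6253 RPM (WT A) and 5485 RPM (WT B), against 13.4 RPM in the KO library and 6.64 RPM in the 3′F library, whose recoded strand is a different sequence. The summed level of 3 myeloid miRNAs (miR-223-3p, miR-142a-3p and miR-142a-5p) lay between 2757 and 3562 RPM in the 4 libraries, and neuronal miR-124-3p had no count. The summed level of 3 erythroid miRNAs was 93.2 and 94.1 RPM in WT against 36.5 in KO and 43.3 in 3′F, and that of 2 stromal ones (miR-143-3p and miR-145a-5p) was 4.92 and 5.09 RPM against 2.10 and 2.22. Endothelial miR-126a-3p was at 10.66, 9.82, 13.15 and 10.31 RPM in WT A, WT B, KO and 3′F, highest in KO. Epithelial miR-200c-3p was at 32.5, 44.6, 28.3 and 30.9 RPM, and lymphocyte miR-150-5p at 2.93, 2.80, 2.51 and 1.54 RPM. Both were lower in each mutant than in either WT library. The part of these differences in the ratios below was not tested.

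The members with the highest mean level are shown first. The 10 members with the most counts held between 81.7% and 82.6% of all member counts in each library. The 10 with the highest mean level are the same but for miR-3535, which stands in place of miR-1843b-5p. Sequences are from RefSeq on GRCm38.p6, 5′ to 3′, with the seed in capitals. Of the 195 members, 172 had a mature sequence in that table. miR-5099, miR-1839-3p and miR-1249-5p were among those without one.
miR-1839-5p: aAGGUAGAuagaacaggucuug
miR-1198-5p: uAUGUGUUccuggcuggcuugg
miR-3968: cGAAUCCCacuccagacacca
miR-1981-5p: gUAAAGGCugggcuuagacguggc
miR-1249-3p: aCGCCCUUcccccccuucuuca
miR-1964-3p: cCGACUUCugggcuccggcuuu
miR-1843a-5p: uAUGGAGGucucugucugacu
miR-3068-3p: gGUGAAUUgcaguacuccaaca
miR-3535: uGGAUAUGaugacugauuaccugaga
They lie at chr7:81529919-81529940 (miR-1839-5p, plus strand), chrX:7807142-7807163 (miR-1198-5p, plus strand, in an intron of Gripap1), chr11:115447969-115447989 (miR-3968, minus strand, opposite Trim80) and chr1:184822465-184822488 (miR-1981-5p, minus strand, an intron of Marc2). miR-1249-3p lies at chr15:84951545-84951566 on the minus strand within 5031439G07Rik, and miR-1964-3p at chr7:29773344-29773365 on the plus strand in an intron of Zfp84. No seed is shared among these 9 sequences. The seed of miR-1839-5p is offset by a base from that of the let-7 family: the run AGGUAG begins at base 2 of miR-1839-5p and at base 3 of let-7a-5p, a comparison chosen after the values were seen.

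Many member hairpins lay at the ends of introns by the GENCODE vM21 gene annotation of GRCm38, and few of the lower-numbered ones did. The counts of the lists are set side by side here and below as a description, with no test. A hairpin sequence was found for 143 of the 170 member hairpins and for 181 of the other miRNAs with at least 30 counts. An end of the hairpin fell within 5 bases of an end of an annotated intron on the same strand for 46 of the 143 member hairpins (32.2%), against 2 of 181 (1.10%). In 37 of the 46 it fell on the intron end itself. The end at issue was nearly always the 3′ one: 45 of the 46 hairpins ended where the intron ends, while 4 began where the intron begins. The 37 on the intron end itself ended in AG, the bases that mark a 3′ splice site. Of the 4, 3 began with the GU of a 5′ splice site. These bases follow from the position and are no separate observation. The introns were from 74 to 36269 bases long with a median of 427.5, so most hairpins took up only the last stretch of their intron. This class was defined after the positions had been seen. At a tolerance of 0 bases it held 37 member hairpins and 1 other, and at 10 bases 52 and 2.

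Both ends met the intron ends in 3 member hairpins, which is the definition of a classical mirtron: mir-1981 in Marc2 (intron 5, 82 bases), mir-7091 in Dnase1l1 (intron 6, 79 bases) and mir-1982 in Oaz1 (74 bases). The hairpins of the 2 best-read ones are shown with the mature arms in capitals, since the first bases of the 5p arm are the first bases of the intron.
mir-1981: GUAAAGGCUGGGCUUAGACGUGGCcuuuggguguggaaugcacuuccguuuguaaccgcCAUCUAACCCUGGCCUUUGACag
mir-7091: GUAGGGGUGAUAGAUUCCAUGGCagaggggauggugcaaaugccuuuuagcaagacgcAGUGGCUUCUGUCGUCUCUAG
They span chr1:184822407-184822488 and chrX:74274027-74274105, both on the minus strand. mir-1981 and mir-7091 were also the best-read of the 46 hairpins at intron ends, with 13911 and 1525 counts summed. Next came mir-5129 in Zeb2 with 175 on its 5p and 1049 on its 3p arm, then mir-7059 in Cln3 with 719, mir-7043 in Rassf4 with 690 and mir-7115 in Arrb2 with 456, and only the first 3 of the 46 reached 1000 counts. The 47 members of hairpins with 1 end at an intron end had a median WT level of 0.95 RPM, and the 5 members of the short introns one of 22.7 RPM.

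A small RNA gene on the same strand overlapped 11 of the 143 member hairpins (7.69%), against 2 of 181 others (1.10%). Nuclear tRNA genes were not among the classes checked, so these counts leave out any overlap with a tRNA gene. Among the 11 are the hairpins of several of the best-read members. mir-1839 is itself annotated as a scaRNA gene and mir-3068 as a snoRNA gene, mir-1843a and mir-1843b lie in Scarna3b and Scarna3a, mir-3535 in a snoRNA gene of an Ncl intron, mir-1291 in Snora34, mir-5121 in Snord33 and mir-3069 in Scarna13. Their 15 members had a median WT level of 4.21 RPM and ranged from 0.44 to 1066 RPM. A read of miR-1839-5p or miR-3535 cannot be told apart here from a fragment of the small RNA that holds the same bases, and the mature sequence of 16 of 172 members (9.30%) occurred in an annotated small RNA, against 3 of 291 other miRNAs (1.03%). Member hairpins also stood alone. Another hairpin lay within 10 kb on the same strand for 5 of 143 (3.50%), against 86 of 181 (47.5%). mir-3074-1 and mir-3065 lie opposite the hairpins of mir-24-1 and mir-338, and mir-1306 in an exon of Dgcr8, the gene of Drosha's partner.

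**Figure D1:**
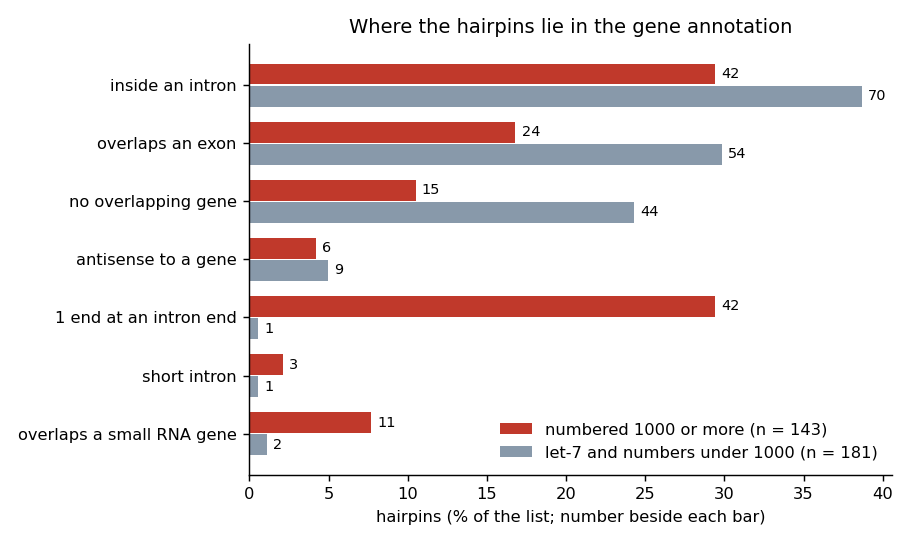
Share of hairpins (horizontal axis, percent of each list) in each class of the gene annotation, for the 143 hairpins of miRNAs numbered 1000 or more (red) and the 181 hairpins of other miRNAs (grey), with the number of hairpins beside each bar and each hairpin in 1 class. The class with 1 end at an intron end holds 42 red and 1 grey hairpins, and that overlapping a small RNA gene 11 and 2. Nuclear tRNA genes were not among the small RNA genes checked.

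The members took up little of each library and most of them were low. Their summed level came to 4019 RPM (WT A), 4853 RPM (WT B), 4453 RPM (KO) and 4480 RPM (3′F), that is 0.402%, 0.485%, 0.445% and 0.448% of the counts, against between 90.3% and 91.6% for the 347 other miRNAs past the same minimum. The library totals include repeated entries of a miRNA, while these sums take 1 entry of each, so the rest is not only miRNAs under the minimum. In WT A the total was 17073442 over all entries and 15712410 with 1 entry per miRNA. The median member stood at 1.29, 1.58, 1.47 and 1.36 RPM in WT A, WT B, KO and 3′F, and the median of the others between 24.9 and 28.3. Of the 195 members, 104 had fewer than 100 counts summed, 69 had at least 100 but fewer than 1000, and 22 had 1000 or more. Between 7 and 8 members per library reached 100 RPM. Counts of different miRNAs also carry the preference of the ligase that joins the adapters, so the order of members by level is an order of reads, not of molecules.

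miR-1839-5p and miR-1198-5p stood far above the rest. miR-1839-5p was at 1008, 1123, 1190 and 1201 RPM in WT A, WT B, KO and 3′F, and miR-1198-5p at 1062, 1384, 1085 and 1027 RPM. Their WT means of 1066 ± 81.5 RPM and 1223 ± 228 RPM (SD, n = 2) overlap within the spread. miR-1198-5p was the higher of the pair in both WT libraries and miR-1839-5p in both mutants. Together they held between 49.7% and 51.7% of all member counts.

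miR-3968 followed with 229.7, 381.4, 470.4 and 367.5 RPM in the same order of libraries, and miR-5099 with 233.1, 274.7, 281.7 and 307.0 RPM. WT A was the lowest library for both. miR-1981-5p, the mirtron product, was at 221.0, 205.0, 153.8 and 184.0 RPM, below both WT libraries in each mutant. miR-1249-3p was at 172.4, 235.8, 142.6 and 198.3 RPM and miR-1964-3p at 163.1, 190.5, 91.7 and 182.3 RPM, both lowest in KO. By WT mean the order was miR-3968 (305.5 ± 107.3 RPM), miR-5099 (253.9 ± 29.4), miR-1981-5p (213.0 ± 11.3), miR-1249-3p (204.1 ± 44.8) and miR-1964-3p (176.8 ± 19.4). Neighbours in this order overlap within 1 SD, except that miR-5099 and miR-1981-5p just miss each other.

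The last 3 of the 10 highest members come from small RNA genes. miR-1843a-5p stood at 96.9, 99.1, 122.9 and 123.5 RPM, the tightest WT pair of the 10, with both mutants above it. miR-3068-3p was at 59.98, 55.1, 69.4 and 61.2 RPM and miR-3535 at 41.1, 52.1, 35.9 and 40.9 RPM. miR-1843a-5p shares a run of 20 bases with miR-1843b-5p, from base 2 of the one and base 1 of the other, and both carry some counts that are not whole, as reads divided among entries give.

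**Figure D2:**
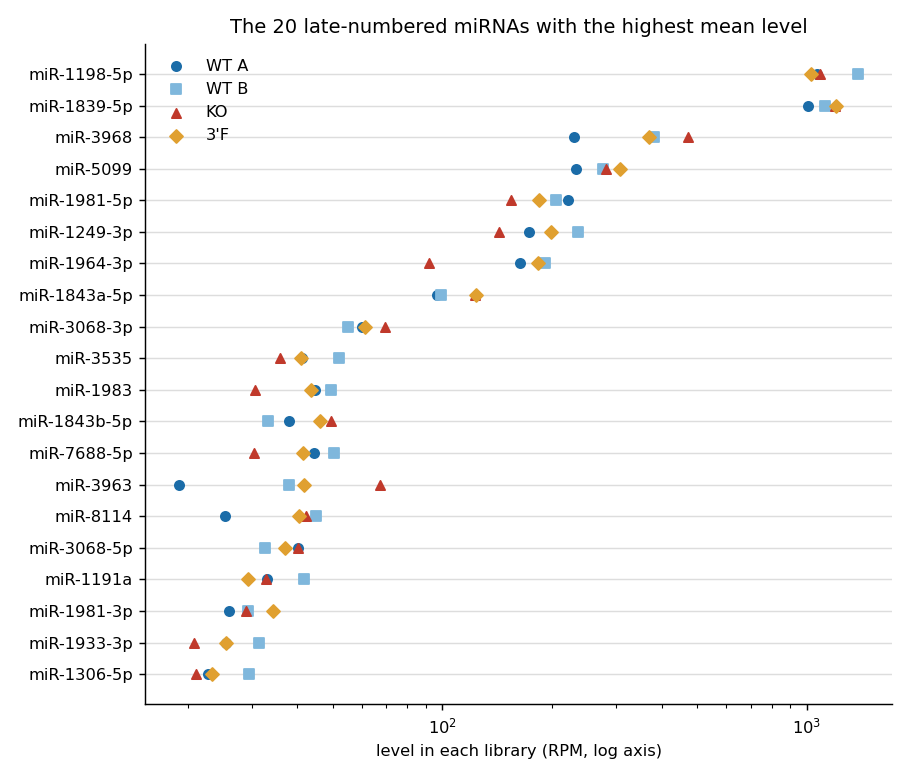
Level in RPM (log axis) of the 20 members with the highest mean over the 4 libraries, with 1 symbol per library. miR-1198-5p and miR-1839-5p lie near 1000 RPM and apart from the others, and the KO symbol of miR-1964-3p, at 91.7 RPM, lies left of the other 3.

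Reads from both arms were found for most member hairpins that list both. Of the 170 hairpins, 118 list a 5p and a 3p product, and 52 list 1 product only, which leaves arm use untestable for miR-3968, miR-5099, miR-3963, miR-3535, miR-1983 and others. Of the 118, 94 (79.7%) had at least 1 count on each arm, 55 (46.6%) had at least 10 on each, and 53 (44.9%) had both arms in every library. The lower-numbered hairpins gave 184 of 207 (88.9%), 156 (75.4%) and 155 (74.9%). Only 15 of the 222 lower-numbered hairpins list 1 product, so the limit to hairpins that list both leaves out a larger part of the member list. Over all hairpins, both arms were read in 94 of 170 member hairpins and 184 of 222 others. Whether a minor arm is seen depends on the count of the hairpin. Among hairpins that list both, the lists lay closer within ranges of summed count. Of these, among hairpins with 30 to 99 counts both arms were read in 42 of 58 (72.4%) member hairpins and 14 of 22 (63.6%) others. Among those with at least 100 but fewer than 1000 counts they were read in 39 of 46 (84.8%) and 38 of 43 (88.4%). Above that the member lists were short, with 9 of 10 and 4 of 4.

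**Figure D3:**
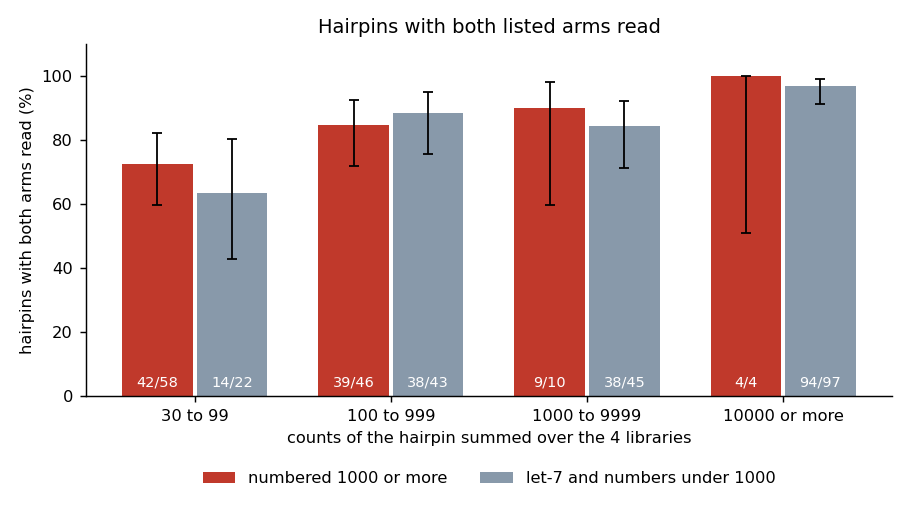
Percent of hairpins listing both arms that had at least 1 count on each (vertical axis), by counts of the hairpin summed over 4 libraries, for miRNAs numbered 1000 or more (red) and others (grey). Numbers in the bars are hairpins with both arms read of those listing both, and whiskers are 95% Wilson intervals, which overlap between the lists in each range, from 72.4% and 63.6% at 30 to 99 counts to 100% and 96.9% in the highest range.

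The balance of the arms differed widely between hairpins. In 25 hairpins both arms were themselves members, the 5p arm the major one in 17 and the 3p arm in 8. Of the 6 best-read of them, mir-1198 was the most one-sided, with 71260 counts on 5p and 173 on 3p, a 5p share of 99.8%, and mir-1839 had 72207 and 721, or 99.01%. mir-1249 leaned the other way with 188 and 11567, a 5p share of 1.60%. The most even was mir-3068, at 2424 and 3969 counts, and the mirtron mir-1981 gave 12026 and 1885. mir-1964 had 3 counts on 5p, all in WT B, against 9661 on 3p. mir-7688 had 2586 on 5p and none on 3p, a limit of 3 counts for the latter. The minor arms of those 6 hairpins are printed where RefSeq has them and the hairpin was not shown above, to show the second arm that was read.
miR-1198-3p: aAGCUAGCcucuaacucauggc
miR-1843a-3p: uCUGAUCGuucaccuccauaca
miR-3068-5p: uUGGAGUUcaugcaaguucuaacc
On the folded hairpins, 136 of 143 member hairpins (95.1%) and 172 of 181 others (95.03%) had a single loop. Where both mature arms had a position, the 3′ overhangs measured 1 to 3 bases at both ends of the duplex in 58 of 90 member hairpins (64.4%) and 112 of 150 others (74.7%). mir-1198 had 2 bases at both ends. mir-1981 and mir-7091 had 0 at the end where the hairpin meets the splice sites, and 4 and 2 at the loop end.

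The major arm was the same in all 4 libraries for each of the 12 best-read of these hairpins. It differed between libraries for 5 of the 25, all with 80 to 263 counts summed: mir-3061, mir-1231, mir-6911, mir-7012 and mir-7687. mir-3061 had 66.2%, 44.6%, 34.3% and 57.6% of its counts on 5p in WT A, WT B, KO and 3′F, so the WT libraries were themselves on either side. The 5p share of mir-3068 was 40.1%, 37.2%, 36.7% and 37.6% in WT A, WT B, KO and 3′F, and that of mir-1249 between 1.26% and 1.79%. Of the 25 hairpins, 3 had a KO share whose 95% Wilson interval lay outside the intervals of both WT libraries, and 2 a 3′F share. These intervals cover counting error only, and replicate spread was not covered. Such shares were not compared for the hairpins of other miRNAs, so no background stands beside these counts. mir-1839 had 98.8%, 98.9%, 99.3% and 98.9%, with KO outside. mir-1981 had 89.5%, 87.5%, 84.1% and 84.3%, with both mutants below WT. mir-1306 had 88.0%, 92.3%, 80.9% and 92.0%, with KO low, and mir-7091 had 84.2%, 86.6%, 82.3% and 74.5%, with 3′F low. For mir-5129 the WT libraries stood at 8.98% (95% Wilson interval 6.00 to 13.2) and 16.8% (12.4 to 22.4), KO at 19.7% and 3′F at 7.33%, so that WT B was near KO and WT A near 3′F. Its 5p arm was at 1.29 and 3.15 RPM in the WT libraries.

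**Figure D4:**
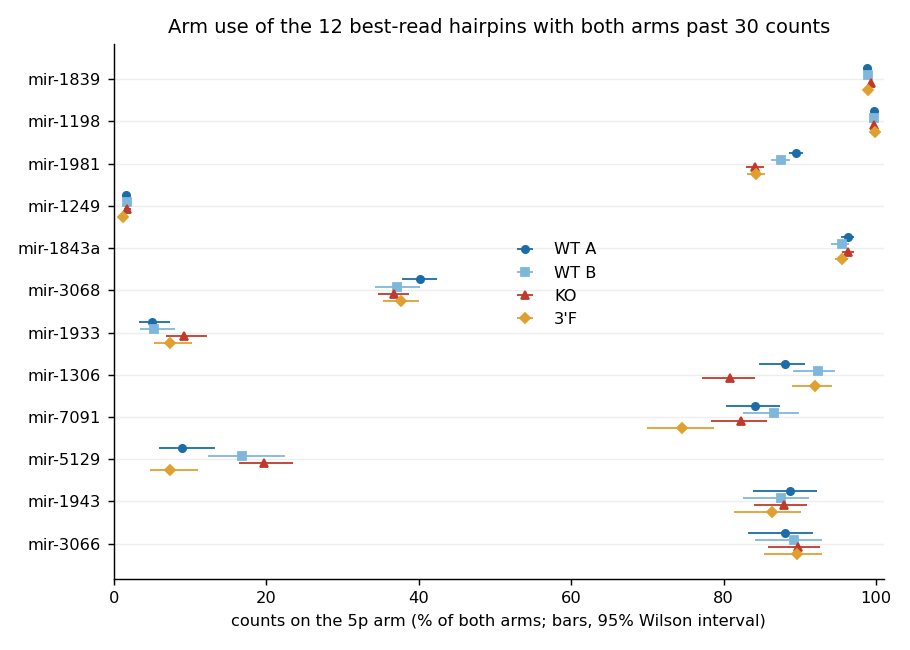
Percent of counts on the 5p arm (horizontal axis) in each library, with 95% Wilson intervals for counting error, for the 12 best-read hairpins with both arms among the members. Each hairpin lies on 1 side of 50% in all 4 libraries, mir-3068 lies between 36.7% and 40.1%, and the 3′F symbol of mir-7091 lies at 74.5%, left of the others.

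As a whole the members lay within the WT spread in both mutants. The log2 ratio of their summed RPM to the WT mean of 4436 ± 590 RPM (SD, n = 2) was 0.01 in KO and 0.01 in 3′F, while WT B and WT A differed by 0.27. Without the 4 highest members, which held most of the sum, the ratios were −0.16 in KO and −0.01 in 3′F, and the WT libraries differed by 0.19, with KO below both of them (1426 RPM against 1486 and 1690). The median member ratio on log2(RPM + 0.1) was −0.04 in KO and −0.09 in 3′F, beside −0.04 and −0.10 over all 542 miRNAs with at least 30 counts. KO lay above both WT libraries for 66 members, below both for 67 and between them for 62. 3′F gave 64, 75 and 56. Over all 542 miRNAs the same counts were 183, 215 and 144 in KO, and 148, 230 and 164 in 3′F.

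A member was called where a mutant was 2-fold or more above each WT library, or 2-fold or more below each, on that scale. In KO 2 of 195 members were called higher (1.03%, against 2.03% of all 542 miRNAs) and 9 lower (4.62%, against 3.69%). In 3′F 3 were called higher (1.54%, against 0.923%) and 2 lower (1.03%, against 0.923%). These shares are near the background. The WT libraries themselves lay at least 2-fold apart for 20 members (10.3%, against 5.35%). Of those 20, 17 were among the 104 members with fewer than 100 counts (16.3%, against 5 of 51, or 9.80%, of the other miRNAs in that range). Among the 22 members with at least 1000 counts none was called in either mutant or apart in WT. Of all 216 miRNAs in that range, 2.31% were called higher and 1.39% lower in KO, 0% and 0.463% in 3′F, and 0% were apart in WT. Among the 91 members with at least 100 counts there were 1 higher and 2 lower in KO, 1 higher and 0 lower in 3′F, and 3 apart in WT. The shares of these were 1.10%, 2.20%, 1.10%, 0% and 3.30%, against 2.58%, 2.84%, 0.517%, 0.775% and 1.81% of all 387 miRNAs in that range.

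**Figure D5:**
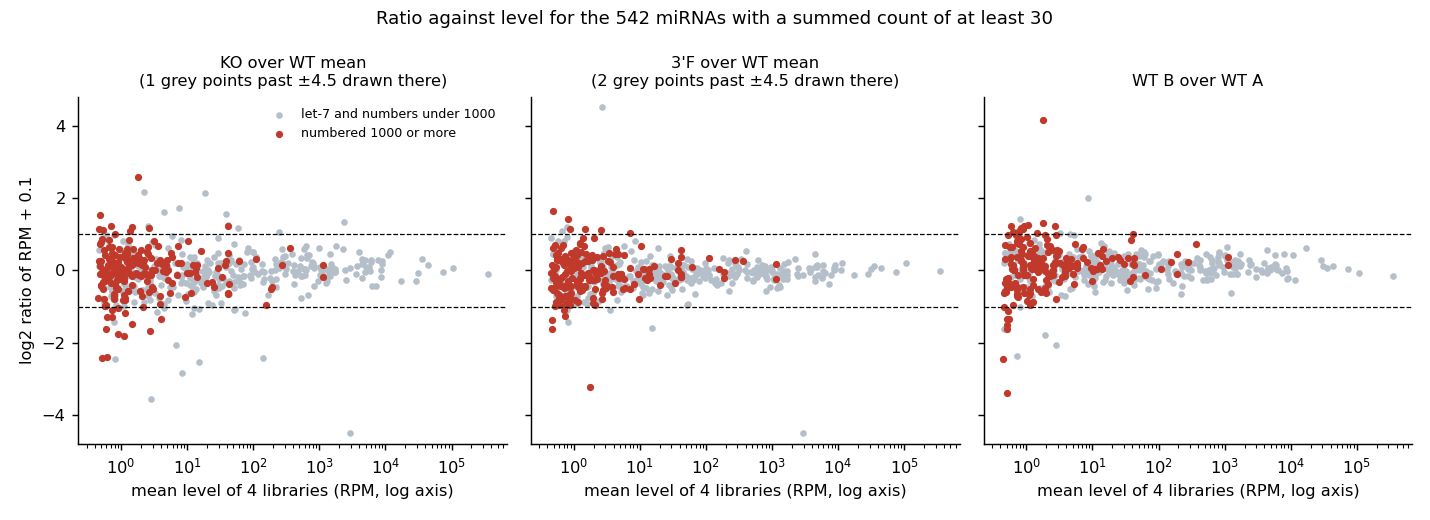
log2 ratio of RPM + 0.1 (vertical axis) against the mean level of the 4 libraries in RPM (log axis) for KO over the WT mean, 3′F over the WT mean and WT B over WT A, with the 195 members in red, the other 347 miRNAs in grey and dashed lines at 2-fold. The spread of the red points widens below about 1 RPM in all 3 panels, and the single red point above 4 in the WT panel is miR-1948-5p.

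The called members with at least 100 counts were 4. miR-1948-5p was read at 0, 1.67, 5.50 and 0 RPM in WT A, WT B, KO and 3′F, as 0, 19, 105 and 0 counts. Its place among the members, and among those with at least 100 counts, rests on the KO counts. KO was 3.29-fold above WT B and at least 31.3-fold above WT A, set at 3 counts in that library. The WT libraries thus differed in whether it was read at all, and 3′F was at 0 as WT A was. miR-1258-3p, not called, was likewise missing from 1 WT library, with 16, 0, 18 and 3 counts. The other 193 members had counts in every library.

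miR-6539 was at 4.63, 5.87, 1.99 and 3.46 RPM, 0.388 times the pooled WT libraries in KO (95% counting interval 0.264 to 0.558). miR-7679-5p, from an intron of Slfn9, a Schlafen family gene, was at 3.40, 4.03, 1.10 and 2.35 RPM, 0.301 times WT in KO (0.179 to 0.485). In both, KO was the lowest library, 3′F came next and the WT libraries were highest. The 3p arm of mir-7679 had 9, 8, 5 and 13 counts, and its log2 ratio in KO was −0.99 beside −1.67 for 5p. miR-3470b was at 1.84, 1.67, 2.78 and 3.89 RPM, 2.19 times WT in 3′F (1.505 to 3.28), with both mutants above both WT libraries. Its 21 bases occur in transcripts of 544 annotated genes, so its reads cannot be placed at a single locus. With a pseudocount of 0.5 or 1 RPM miR-3470b was no longer called, its log2 ratio in 3′F then being 0.96 and 0.83. With 1 RPM the call of miR-6539 in KO was also lost, at −1.06.
miR-7679-5p: aGGCUGGCaccaggaucccu
miR-3470b: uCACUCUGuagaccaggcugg

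The remaining calls rest on fewer counts still. The other 7 members called lower in KO, named because they are the rest of the list (miR-1231-5p, miR-6966-3p, miR-7669-5p, miR-3109-5p, miR-5103, miR-12201-5p and miR-3103-3p), had 33 to 89 counts summed and 1 to 12 in KO. miR-5103 had 16, 11, 2 and 8 counts, 0.110 times WT in KO with an interval of 0.0127 to 0.440. For mir-1231 and mir-3109 the 3p arm had the opposite sign, 0.36 and 0.52 on the log2 scale, where the 5p arm had −1.49 and −1.28. miR-5107-3p was higher in both mutants, with 2, 3, 14 and 13 counts, and miR-7012-5p in 3′F, with 5, 7, 19 and 22. miR-6970-3p and miR-7022-5p were called lower in 3′F on 2 counts each, and the interval of miR-7022-5p (0.0296 to 1.20) includes 1. For the 25 hairpins with both arms among the members, the arms had ratios of the same sign in 14 in KO, in 14 in 3′F and in 14 between the WT libraries.

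Some well-read members lay outside the WT range without reaching 2-fold from both libraries. miR-1964-3p was 0.527 times WT in KO (0.499 to 0.557), a log2 ratio of −0.95, while WT B and WT A differed by 0.22 and 3′F by 0.04 from WT. miR-3963 was at 18.98, 37.9, 67.2 and 41.7 RPM, 2.53 times WT in KO (2.31 to 2.77), but WT B was itself near 2-fold above WT A. The similar miR-3968 was 1.62 times WT in KO (1.57 to 1.67) with the WT libraries 0.73 apart on the log2 scale.
miR-3963: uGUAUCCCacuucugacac
miR-3968 and miR-3963 share the 8 bases AUCCCACU from base 4 of each, and miR-3968 shares its first 9 bases, CGAAUCCCA, with miR-5100 from base 2. miR-5100 stood at 1.11, 2.28, 2.04 and 2.10 RPM. WT A was the lowest library for all 3, with WT B, KO and 3′F above it. This comparison was chosen after their values were seen.

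Smaller differences were seen in other well-read members. miR-1983 was at 44.6, 49.4, 30.6 and 43.7 RPM and miR-7688-5p at 44.4, 50.5, 30.3 and 41.6 RPM, both lowest in KO at 0.657 and 0.648 times WT. miR-1843b-5p, at 37.8, 33.3, 49.5 and 46.3 RPM, followed its paralog miR-1843a-5p, with both mutants above both WT libraries, though the pair may share reads. miR-1981-5p was 0.717 times WT in KO (0.686 to 0.749), while its 3p arm was at 25.9, 29.4, 29.0 and 34.3 RPM, within or above the WT range. miR-1839-3p, at 12.4, 12.7, 8.12 and 13.0 RPM, was 0.650 times WT in KO (0.535 to 0.787), where the 5p arm was 1.13 times WT.

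Late-numbered miRNAs listed from general knowledge of where their hairpins come from ranged from absent to the top of the list. Of the 30 mature miRNAs so listed 23 were members. Both arms of miR-1224, a mirtron known from brain, had no count, and miR-2137 had 18 counts and was no member. miR-1306-5p, from the Dgcr8 exon, was at 22.7, 29.5, 21.1 and 23.3 RPM and its 3p arm at 3.10, 2.45, 4.98 and 2.04 RPM, the latter highest in KO. miR-3074-5p, opposite mir-24-1, was at 3.60, 3.68, 4.45 and 3.86 RPM, and miR-1291, from Snora34, at 1.46, 1.49, 1.41 and 0.99 RPM. miR-3065-5p, opposite mir-338, had 8, 2, 16 and 6 counts.

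The mature sequences of members began with U in 79 of 172 (45.9%), A in 47, C in 34 and G in 12, and those of the other miRNAs with U in 106 of 291 (36.4%). The order of the lists differed between count ranges, some of which held few sequences. With 30 to 99 counts U came first in 43 of 88 members (48.9%) and 6 of 31 others (19.4%). With 1000 or more counts it came first in 7 of 21 members (33.3%) and 83 of 174 others (47.7%). Members were 21 to 23 bases long in 139 of 172 (80.8%), against 91.8% of others, and ranged from 17 to 26 bases. The median GC share was 54.5%, against 47.6%. Hairpins at intron ends had a median GC share of 55.9%, against 52.7% for the other 97 member hairpins.

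Almost every member with a sequence had a seed of its own. The 172 sequences held 171 distinct seeds, and the only seed shared within the list was AGGAGGA, of miR-6942-5p and miR-6916-5p. Another 4 members shared a seed with a lower-numbered miRNA that had at least 30 counts: miR-5129-3p with miR-455-5p, miR-3473d with miR-674-5p, miR-6240 with miR-330-3p, and miR-1961 with let-7 and miR-98-5p.
miR-1961: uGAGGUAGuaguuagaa
miR-5129-3p: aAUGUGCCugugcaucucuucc
miR-1961, at 17 bases the shortest of the 172 with a sequence, had 4.5, 7, 22 and 12.5 counts, shared in part with other lines. miR-5129-3p was at 13.1, 15.6, 20.7 and 15.6 RPM, highest in KO.

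At the count minimum the lowest members were miR-7022-5p with 31 counts (7, 6, 16 and 2) and miR-3091-3p and miR-7672-3p with 30 each (16, 1, 5 and 8, and 10, 4, 11 and 5). Just outside lay miR-1949, miR-3094-5p, miR-7042-3p and miR-8107 with 29 each.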

How the data were processed

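Small RNA from resting bone marrow-derived macrophages (2 WT libraries, 1 KO, 1 3′F) was size-selected and made into NEBNext libraries by the authors. The submitters' processing notes name cutadapt 1.8.3. The aligner, counter, genome build and miRNA release are not given in the sources used here. The deposited values are estimated counts per mature miRNA, in part not whole because reads were shared among entries, and RPM, which the authors computed by dividing by the sum of all entries. Ligation of adapters depends on sequence, so levels of different miRNAs are not copy numbers. Groups were taken from the labels.

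The table was reduced to 1 entry per miRNA, that with the highest summed count. Members were selected on number (1000 or more) and summed count (30 or more), and members and lists were chosen with earlier results of these data known. The genes named were the 10 highest members, called members with at least 100 counts, the 6 best-read hairpins with both arms among the members, those next to the count minimum and a list from general knowledge; others named were chosen after their values were seen. A call needed a 2-fold difference from both WT libraries on log2(RPM + 0.1). With 1 library per mutant no p-value was computed. Intervals at 95% (Wilson for arm shares, exact binomial for ratios of counts) cover counting error only, and 3 counts set the floor for a count of 0. Sequences were read from RefSeq tables on GRCm38.p6, positions were set against GENCODE vM21, and hairpins were folded with RNAfold 2.7.2. The class of hairpins with 1 end at an intron end was added after the positions were seen. Alternatives were the pseudocount, count minimum, fold, entries per miRNA, scaling (edgeR 4.0.16 TMM on R 4.3.3, DESeq2 1.42.0 size factors) and leaving out each WT library. The steps ran in Python 3.11.15 with scipy 1.17.1, pandas 2.3.3, matplotlib 3.10.9 and numpy 2.4.6, and the calling step was tested on simulated data.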

Additional observations from a re-analysis of the deposited data

How the results depend on the processing

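The number of members called depended on how low counts were treated. The count of calls in KO, 11 as reported, was 2 with a pseudocount of 1 RPM, 5 with 0.5 RPM, 24 with a minimum of 10 counts, 3 with 100 and 44 with none, and it was 39 at 1.5-fold and 4 at 3-fold. The count minimum changes which miRNAs are members, and these counts do not say which members are shared. For 3′F the count of 5 became 0, 0, 25, 1 and 49, and 26 and 0. For WT libraries apart the count of 20 became 1, 5, 64, 3 and 126, and 62 and 4. Leaving out a WT library gave 25 to 30 calls in KO and 17 to 23 in 3′F, since a call then rests on 1 WT library. Apart from the minimum of 100 counts, these alternatives were run on members only, so no share over all miRNAs stands beside the counts. The share of hairpins with both arms read, 79.7%, was 60.4% with no count minimum, and 56.8% and 46.6% where an arm had to have 5 and 10 counts. The median WT level of 1.38 RPM was 0.6 RPM with a minimum of 10 counts, 4.72 RPM with 100 and 0.19 RPM with none. The other 35 of 66 alternatives, scaling by TMM and DESeq2 among them, stayed within 1.5 times the count or within the spread. Of 448 recomputed ratios of named miRNAs, 411 changed from the reported value by less than the WT spread of that miRNA, and 37 by more. Leaving out a WT library shifts a ratio by less than this spread unless the WT libraries lie far apart. That 64 of 64 ratios stayed within it without WT A, and 62 of 64 without WT B, was thus nearly fixed in advance. The same holds for the summed member level with a WT library left out. A change of sign was looked for only in called members, where there were 0. No paired analysis was possible because each mutant was sequenced as 1 library. Members near 30 counts hold about 1 count in some libraries, so depth limits them to large differences.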
